A study of Mus musculus with 4 samples.

Results

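Serpina3n, Lcn2, Steap4, Cd44, Aspg, Cd109, Emp1, Ptx3, Sphk1 and Amigo2 are genes whose transcripts mark reactive astrocytes in mouse brain. They were taken by symbol from a count table of 45703 genes, and all 10 of 10 were found, each in 1 entry. The table came from poly-A RNA of 4 primary cultures of cortical astrocytes, 1 library each. All 4 cultures form 1 group, with no other genotype, stimulus or time point. The cells came from the frontal cortex of wild-type mice of the outbred CD-1 stock at postnatal day 4. They grew in a medium with fetal calf and horse serum, B27 and EGF at 10 ng/ml, were reseeded at day 6 in vitro, and were lysed 3 days later. All stood for 1 h in serum-free Ham's medium before RNA was prepared. The labels name no cell sorting and do not say whether the cultures came from separate animals, so that the spread between them may be technical. No quiescent or stimulated astrocytes are among the samples, and no value below measures a reactive state against a resting one.

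Astrocytes respond to injury and inflammation by enlarging, by raising intermediate filament proteins and by switching on a set of secreted, surface and metabolic genes. Profiles of astrocytes from injured mouse brain gave rise to 3 marker panels. One is raised after inflammatory and ischaemic injury alike (pan-reactive), another mainly after inflammatory injury (A1-type), and the remaining one mainly after ischaemic injury (A2-type). Serpina3n, Lcn2, Steap4, Cd44 and Aspg belong to the pan-reactive panel, Cd109, Emp1, Ptx3 and Sphk1 to the A2-type panel, and Amigo2 to the A1-type panel. The names are used here for the panels only, and not as a call on the state of these cells.

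Levels are given as CPM, the counts per 1000000 counts of a library, and as RPKM, which divides CPM by the kilobases of exon of the gene and so can be set beside the RPKM of another gene. The libraries held 37300485 to 42369109 counts. Cultures 1, 2 and 3 were almost repeats, with a chi-square per degree of freedom of 2.11 to 3.17 between their counts, and culture 4 stood apart from each of them at 39.4 to 41.1. Thus 3 of the 4 values behind each mean are near-repeats, and the value of culture 4 is given apart throughout. Of the defining astrocyte markers, all 10 were expressed (CPM of at least 1 in every library), with Slc1a3, the glutamate transporter GLAST, at 2601 ± 78.6 CPM and Aldh1l1 at 733 ± 14.3 (SD, n = 4). The 5 endothelial markers were all below 1 CPM in every library, while microglial and fibroblast markers were present, with values given beside the results they move with. Comparisons of culture 4 with the others set 1 library against 3 of the same labelled group, so no p-value is given for them. Intervals on counts are exact 95% intervals that cover counting error only.

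Sequences in front of the members' genes are shown first, on the strand of the gene and 5′ to 3′ (RefSeq starts, GRCm38.p6). A window of 250 bases before the start was found in the promoter table for 9 of the 10 members. Capitals mark matches, on either strand, to the motif cores of factors known to act in reactive astrocytes. These were STAT (TTCNNNGAA), AP-1 (TGANTCA), C/EBP (TTGCNCAA) and the NF-kB motif. The stretches shown stop where an annotated transcript begins and belong to the 5 members that differed most in culture 4, with Amigo2 as one that differed little. They cover chr12:104406458-104406645 (plus) for Serpina3n, chr2:32387798-32387989 (minus) for Lcn2, chr5:7960222-7960456 (plus) for Steap4, chr12:112106433-112106678 (plus) for Aspg, chr3:66219637-66219886 (plus) for Ptx3 and chr15:97247288-97247537 (minus) for Amigo2.
Serpina3n: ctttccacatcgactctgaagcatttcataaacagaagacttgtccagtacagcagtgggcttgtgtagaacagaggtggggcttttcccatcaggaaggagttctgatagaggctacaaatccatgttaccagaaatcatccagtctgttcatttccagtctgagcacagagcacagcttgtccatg
Lcn2: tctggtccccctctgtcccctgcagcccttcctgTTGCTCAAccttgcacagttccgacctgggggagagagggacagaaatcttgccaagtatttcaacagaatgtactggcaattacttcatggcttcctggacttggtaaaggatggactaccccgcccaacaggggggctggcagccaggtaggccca
Steap4: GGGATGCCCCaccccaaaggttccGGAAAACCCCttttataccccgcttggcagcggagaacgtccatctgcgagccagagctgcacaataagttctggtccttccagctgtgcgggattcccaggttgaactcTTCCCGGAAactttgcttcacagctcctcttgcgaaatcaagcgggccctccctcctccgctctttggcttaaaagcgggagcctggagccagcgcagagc
Aspg: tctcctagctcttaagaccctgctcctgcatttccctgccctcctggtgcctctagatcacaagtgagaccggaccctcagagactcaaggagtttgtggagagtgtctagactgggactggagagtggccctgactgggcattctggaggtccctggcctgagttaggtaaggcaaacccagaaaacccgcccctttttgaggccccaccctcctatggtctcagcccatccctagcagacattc
Ptx3: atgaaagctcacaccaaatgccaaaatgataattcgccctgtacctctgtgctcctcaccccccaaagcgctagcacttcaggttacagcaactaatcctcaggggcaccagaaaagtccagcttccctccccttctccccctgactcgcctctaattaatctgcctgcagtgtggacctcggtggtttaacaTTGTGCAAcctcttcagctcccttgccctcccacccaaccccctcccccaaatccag
Amigo2: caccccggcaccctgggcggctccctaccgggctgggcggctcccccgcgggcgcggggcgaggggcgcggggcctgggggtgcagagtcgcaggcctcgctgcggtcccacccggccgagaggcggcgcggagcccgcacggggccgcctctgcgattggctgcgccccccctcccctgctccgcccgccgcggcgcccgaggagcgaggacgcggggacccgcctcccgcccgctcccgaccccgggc

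Lcn2 and Ptx3 each held 1 C/EBP match, Steap4 held 1 STAT and 2 NF-kB matches, and the stretches of Serpina3n, Aspg and Amigo2 held none. In all, the STAT motif was matched in a window of 3 of the 9 members (Steap4, Emp1 and Sphk1), AP-1 in 2 (Emp1 and Sphk1), C/EBP in 2 and NF-kB in 2 (Steap4 and Sphk1). Emp1 and Sphk1 have more than 1 window each, and the 9 genes have 14 in all. All windows of Emp1 and Sphk1 lie inside the deposited interval of the gene, so their matches may be in transcribed bases. Among all 32851 windows of the table, 7.02% held the STAT motif, 6.75% AP-1, 2.61% C/EBP and 7.25% NF-kB. These shares count single windows, while a member was counted for a match in any of its windows. The counts of members therefore cannot be compared with them directly. In Emp1, an AP-1 and a STAT match overlap each other. Emp1 and Sphk1, with log2 differences of only -0.20 and -0.08 in culture 4, held up to 4 and 2 matches in a window. Serpina3n and Aspg, both more than 1.5-fold lower there, held none. Whether matches go with the difference in culture 4 was not tested. A match describes these letters only, and none of the factors was measured at these sites.

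All 10 members were expressed, against 32.2% of the genes in the table (14725 of 45703). Their levels lay in 3 tiers of RPKM. Cd44, Serpina3n, Emp1, Cd109 and Ptx3 lay between 32.03 and 49.97 RPKM on average, Lcn2, Sphk1 and Amigo2 between 4.60 and 7.60, and Aspg and Steap4 at 1.497 and 1.41. The members of the upper tier were above 82.8% to 89.4% of the expressed genes, and Aspg and Steap4 above 15.7% and 14.9%.

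**Figure D1:**
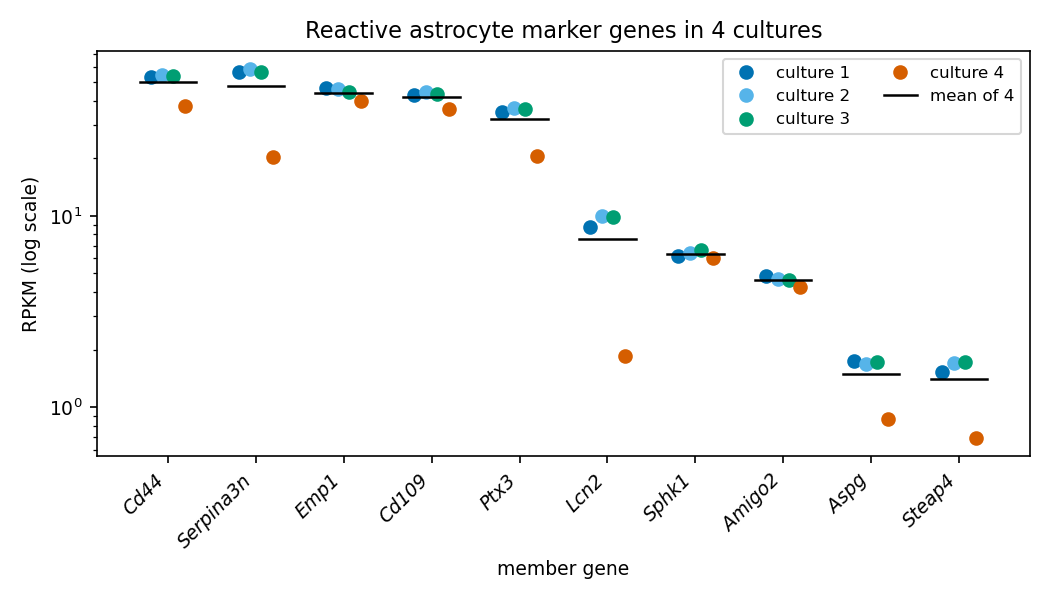
RPKM (log scale) of the 10 members in each of the 4 cultures, with points for cultures and a line for the mean of 4. The members fall into an upper tier of 5, a middle tier of 3 and a lower tier of 2, and culture 4 is the lowest point for every member.

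Among the secreted proteins, Serpina3n is an inhibitor of serine proteases (gene 20716, chr12:104406646-104414334, plus strand). Its CPM was 122 in culture 1, 126 in culture 2, 122 in culture 3 and 43.7 in culture 4. The values of cultures 1 to 3 were nearly the same, and culture 4 lay 2.80-fold below their mean (-1.49 on the log2(CPM + 0.5) scale, used for all such differences). Averaged over the 4 cultures it stood at 48.0 ± 18.5 RPKM. Its counts were not whole numbers, so reads may be shared with near-identical paralogues, and its level is uncertain to that extent. The summed CPM of the 11 genes of the Serpina3 cluster was 155, 161, 155 and 54.9 in cultures 1 to 4, which gives a difference of -1.51 for culture 4. The cluster as a whole was thus lower in culture 4. Serpina3n holds 78.7% of its counts, so the sum cannot show how far read sharing affects the difference of Serpina3n itself.

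Lcn2 encodes lipocalin 2, a secreted protein that binds iron-carrying siderophores (gene 16819, chr2:32384637-32387739, minus strand). It had 307, 340 and 313 counts in cultures 1, 2 and 3 and 67 in culture 4, or 7.47, 8.48, 8.39 and 1.58 CPM. Culture 4 reached 0.195 of the rate of the other 3 (0.150 to 0.250), the lowest share of any member. On the log2 scale the difference was -2.05, or 4.13-fold, which the pseudocount of 0.5 makes smaller than the ratio of the counts. The mean over 4 cultures was 7.60 ± 3.87 RPKM.

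Ptx3 encodes pentraxin 3, a secreted pattern recognition protein of the extracellular matrix (gene 19288, chr3:66219887-66225806, plus strand). Its CPM was 67.5, 70.1, 69.3 and 39.3 in cultures 1 to 4, with a mean of 32.03 ± 7.73 RPKM. Culture 4 lay 1.74-fold below the others (-0.80). All 3 secreted members thus had their lowest value in culture 4, well outside the range of the other 3 libraries. Ptx3 lies opposite Veph1 on the other strand, which had at most 1.995 CPM, and no source used here says whether reads were counted by strand.

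Among the surface proteins, Cd44 is the hyaluronan receptor (gene 12505, chr2:102811141-102901669, minus strand). Its CPM was 306, 315, 311 and 216 in cultures 1 to 4, the highest of the members, and its mean was 49.97 ± 8.27 RPKM. Culture 4 lay 1.44-fold below the others (-0.52), just outside the 1.5-fold threshold used for counts. Cd109, a membrane-anchored protein of the alpha-2-macroglobulin family that dampens TGF-beta signalling (gene 235505, chr9:78615546-78716260, plus strand), stood at 251, 259.8, 256 and 213 CPM. That is a mean of 41.8 ± 3.67 RPKM and a 1.198-fold lower value in culture 4 (-0.26). Cd44 and Cd109 were both below the range of cultures 1 to 3 in culture 4, but by less than Serpina3n, Lcn2 and Ptx3.

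Emp1 encodes epithelial membrane protein 1, a tetraspan protein related to the myelin protein Pmp22 (gene 13730, chr6:135362550-135383173, plus strand). It had 150.2, 149, 143 and 129 CPM in cultures 1 to 4 and a mean of 44.1 ± 3.06 RPKM. Its difference in culture 4 was -0.20, or 1.14-fold, although culture 4 was still the lowest. Amigo2 encodes an adhesion protein with leucine-rich repeats (gene 105827, chr15:97244074-97247287, minus strand), and had 15.6, 15.0, 14.9 and 13.7 CPM. Culture 4 gave 0.902 of the rate of the others (0.820 to 0.991), a difference of -0.14, at a mean level of 4.60 ± 0.249 RPKM. The antisense gene Pced1b, which overlaps Amigo2, had up to 5.35 CPM. If strand was ignored, reads of that pair cannot be told apart.

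The 3 remaining members are enzymes. Steap4 is a metalloreductase that reduces iron and copper (gene 117167, chr5:7960472-7982213, plus strand). It had 197, 214 and 202 counts in cultures 1 to 3 and 92 in culture 4, or 4.80, 5.34, 5.42 and 2.17 CPM. Culture 4 reached 0.420 of the rate of the others (0.333 to 0.523), a log2 difference of -1.09 or 2.12-fold. It was the lowest member in RPKM, at 1.41 ± 0.487.

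Aspg is an asparaginase (gene 104816, chr12:112106683-112127573, plus strand). Its counts were 290, 273, 260 and 149 in cultures 1 to 4, or 7.06, 6.81, 6.97 and 3.52 CPM. Culture 4 reached 0.506 of the rate of the others (0.4223 to 0.603), and the log2 difference was -0.89, or 1.85-fold. For both low-level enzymes the interval lay below 1.

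Sphk1 is a sphingosine kinase that makes sphingosine-1-phosphate (gene 20698, chr11:116530836-116536675, plus strand). Its CPM was 26.2, 27.4, 28.4 and 25.9, with a mean of 6.31 ± 0.267 RPKM. The rate in culture 4 was 0.948 of the others, with an interval of 0.884 to 1.02 that includes no difference. It was the member whose level in culture 4 was nearest to that in the other cultures (-0.08, or 1.05-fold), and the gap from culture 4 to culture 1 was smaller than the spread among cultures 1 to 3.

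Neighbours in the order of mean RPKM were mostly not separated. Cd44 exceeded Serpina3n in 1 of 4 libraries only, with means 1.04-fold apart, and Serpina3n exceeded Emp1 in 3 of 4. Emp1 was above Cd109 in 4 of 4 libraries, but by 1.06-fold and with overlapping ranges, and Cd109 above Ptx3 in 4 of 4, by 1.30-fold. The gap below the upper tier, from Ptx3 to Lcn2, was 4.22-fold, and the gap above the lower tier, from Amigo2 to Aspg, was 3.07-fold. In both, the ranges over the 4 libraries did not overlap. Lcn2, of the middle tier, came near the lower tier in culture 4, at 1.85 RPKM beside 1.74 for Aspg in culture 1. In CPM, Lcn2 (6.48) lay beside Aspg (6.09), so the tiers rest in part on the length term. Lcn2 was above Sphk1 in 3 of 4 libraries, Sphk1 above Amigo2 in 4 of 4 without overlap (1.37-fold), and Aspg above Steap4 in 2 of 4. Without culture 4, Serpina3n moved above Cd44, and with GENCODE transcript lengths Sphk1 moved above Lcn2.

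All 10 members were lower in culture 4 than the mean of cultures 1 to 3, and 5 of the 10 by more than 1.5-fold: Lcn2, Serpina3n, Steap4, Aspg and Ptx3. Among the 15217 genes tested, those whose CPM averaged 1 or more, 681 were that much lower, or 4.48%. No member was more than 1.5-fold higher, against 1.81% (275) of all genes. The median difference over the members was -0.66, beside 0.03 over all genes, of which 43.7% were below 0. Only 0.151% of the genes tested had a lower difference than Lcn2, 0.355% a lower one than Serpina3n and 0.999% than Steap4, while for Sphk1 that share was 31.2%. By Dixon's 95% limit for a library that stands apart, culture 4 was a low outlier in 5 of the 10 members (Serpina3n, Lcn2, Cd44, Aspg and Ptx3), against 5.73% of the genes tested. These are bulk samples, in which fewer cells of a type and less RNA per cell cannot be told apart.

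**Figure D2:**
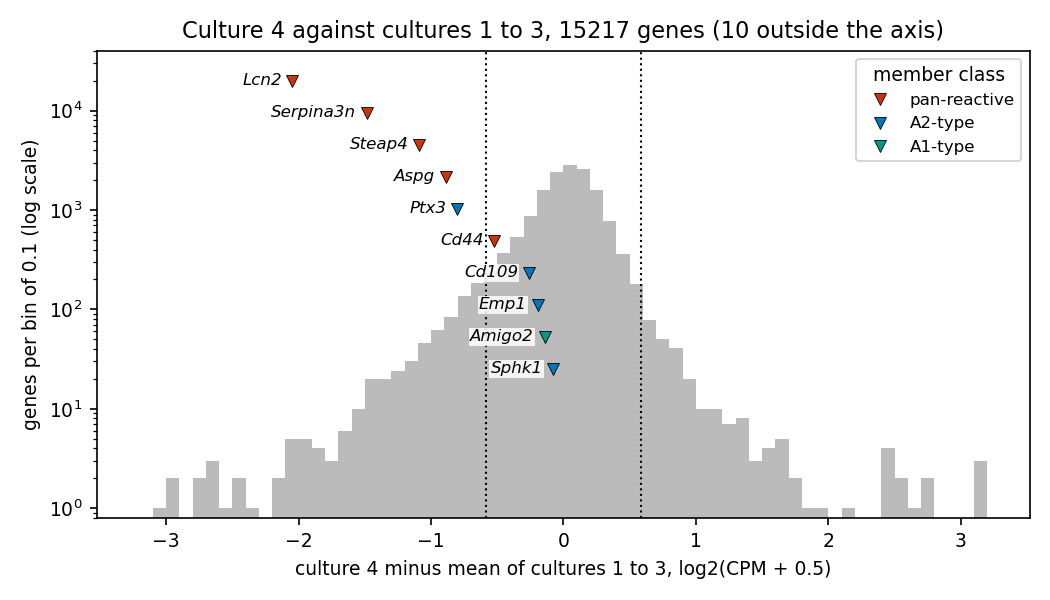
Histogram of the difference between culture 4 and the mean of cultures 1 to 3 on the log2(CPM + 0.5) scale for 15217 genes (gene number on a log scale), with dotted lines at 1.5-fold and triangles at the members, coloured by panel. All members lie below 0, from Sphk1 at -0.08 to Lcn2 at -2.05, and 5 lie beyond the line at 1.5-fold.

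The difference was not even across the panels. Of the 5 pan-reactive members, 4 were more than 1.5-fold lower in culture 4, with a median of -1.09, and their summed CPM was 447 to 462 in cultures 1 to 3 and 267 in culture 4, or 58.8% of the mean. Of the 4 A2-type members only Ptx3 was, with a median of -0.23 and a sum of 495 to 506 against 407, or 81.5%. Amigo2, the A1-type member, was at 90.3%. Whether the panels differ was not tested, since a single library carries the difference.

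Spread over the 4 libraries is given as the biological coefficient of variation (BCV), the part of the spread between libraries beyond counting error as edgeR estimates it for each gene. Lcn2 had the highest of the members, 0.496, above 99.7% of the 17105 genes in the fit, followed by Serpina3n at 0.340 (98.9%) and Steap4 at 0.306 (98.3%). Sphk1 had the lowest, 0.0759, below the median of all genes. The median of the members was 0.174 and that of all genes 0.0941. Without culture 4 these became 0.0247 and 0.0255, so that the members' wide spread came from that library.

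**Figure D3:**
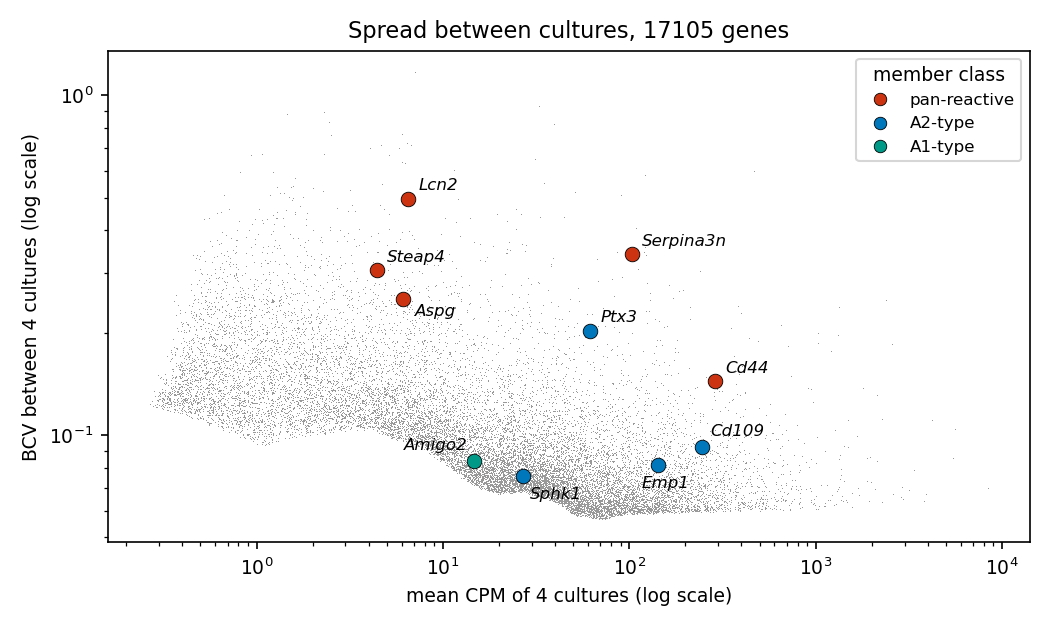
BCV between the 4 cultures against mean CPM (both on log scales) for 17105 genes in grey, with the members as coloured circles. Lcn2, Serpina3n and Steap4 lie at the upper edge of the cloud, and Sphk1, Emp1, Amigo2 and Cd109 within it.

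The other genes of the 3 panels were examined next. Over all genes tested, 43.7% were below 0 in culture 4 and 4.48% more than 1.5-fold lower. With the members, the pan-reactive panel held 13 genes, of which 13 were below 0 in culture 4 and 9 more than 1.5-fold lower (median -0.82). Of the 8 that are not members, 8 were below 0 and 5 more than 1.5-fold lower (median -0.68). Its most abundant genes besides the members were Vim and Gfap, the intermediate filament genes, and Cp, the ferroxidase ceruloplasmin, at 5586 ± 581, 1339 ± 373 and 494 ± 64.3 CPM. Gfap had 1498 to 1555 CPM in cultures 1 to 3 and 779.7 CPM in culture 4 (-0.97). Timp1, an inhibitor of matrix metalloproteinases, differed most of these, at 20.3 to 21.1 CPM against 7.55 (-1.39). Vim and Gfap had counts that were not whole, so their levels carry the same uncertainty as that of Serpina3n.

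In the A2-type panel, members included, 12 of 13 genes averaged 1 CPM or more, 10 were below 0 and 4 more than 1.5-fold lower (median -0.32). Of the 8 such genes that are not members, 6 were below 0 and 3 more than 1.5-fold lower (median -0.42). Stat3, a transcription factor downstream of IL-6 type cytokines, was the most abundant besides the members, at 259 ± 10.9 CPM, and was slightly higher in culture 4 (0.11). B3gnt5, a glycosyltransferase, and S100a10, a calcium-binding protein partner of annexin A2, stood at 69.5 ± 9.09 and 52.05 ± 8.02 CPM, with differences of 0.34 and -0.48. Ptgs2, the inducible cyclooxygenase, differed most in this panel, at 8.79 to 10.3 CPM against 3.87 (-1.22). In the A1-type panel of 12 genes, Amigo2 included, 10 were below 0 and 4 more than 1.5-fold lower (median -0.25). Of its 11 genes besides Amigo2, 9 were below 0 and 4 more than 1.5-fold lower (median -0.32). Its most abundant genes were Fkbp5, a glucocorticoid-induced cochaperone, at 82.8 ± 4.39 CPM, H2-D1 and the matrix protein gene Fbln5 at 43.7 ± 2.63. Iigp1, an interferon-induced GTPase, differed most, by -1.13, and H2-D1, a class I histocompatibility gene, was higher at 70.5 to 72.3 CPM against 95.8 (0.42). No gene of any panel was more than 1.5-fold higher in culture 4.

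Of the ligands known to induce these markers, 4 of 9 were expressed. The inflammatory cytokines Il1a, Tnf, Il1b, Il6 and Osm had mean levels of 0.14, 0.62, 0.62, 0.03 and 0.23 CPM. C1qa, a complement subunit that microglia make, stood at 26.6 ± 6.82 CPM, with 29.3 to 31.4 in cultures 1 to 3 and 16.5 in culture 4 (-0.84). Lif and Cntf, both ligands of the IL-6 family, stood at 9.91 ± 0.96 and 8.99 ± 1.58 CPM (-0.11 and -0.52). Tgfb1 stood at 4.52 ± 1.05 CPM (-0.64). With a median of -0.58, all 4 expressed ligands were below 0 in culture 4, against 43.7% of all genes tested. Of these ligands 2 were more than 1.5-fold lower, against 4.48% of all genes tested. The 5 inflammatory cytokines were below 1 CPM in every library.

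All 14 of 14 receptors and signal transducers on the list were expressed. The shared IL-6 family receptor subunit Il6st led at 256 ± 19.8 CPM, followed by the TNF receptor Tnfrsf1a at 169 ± 19.0 and the kinase Jak1 at 154 ± 7.21. In culture 4, 11 of the 14 were below 0 and 3 more than 1.5-fold lower, with a median of -0.23. Over all genes tested these shares were 43.7% and 4.48%. Il1r1, the interleukin-1 receptor, differed most, at 8.60 to 9.81 CPM against 3.87 (-1.13).

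Each member was then set beside its measured paralogues in RPKM, except Cd44, for which none was listed. In 3 of 9 families the member was above every paralogue in all 4 libraries. Serpina3n took 78.7% of the counts of its 11-gene cluster and was 8.34-fold above Serpina3h and 12.3-fold above Serpina3m, the next paralogues, with Serpina3i 26.6-fold below it. All 6 of its paralogues averaging 1 CPM or more were more than 1.5-fold lower in culture 4, with a median of -1.13. None of these 6 had whole counts. They may share reads with Serpina3n, so their differences may not be independent of it. Ptx3 was 4.95-fold above Nptx2, a pentraxin of synapses, 17.0-fold above Nptx1 and 18.7-fold above the receptor gene Nptxr. The short pentraxins differed from it altogether, since Crp had 0.25 counts in total and Apcs 0. Nptx2 was higher in culture 4 (0.43), opposite to Ptx3. Amigo2 was above Amigo1 by 1.13-fold in 4 of 4 libraries. That order turns around in CPM, at 14.8 for Amigo2 against 22.7 for Amigo1, and so rests on the length term. Amigo3 was 6.51-fold below Amigo2.

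In the other 6 families a paralogue was higher in at least 1 library. Lcn2 exceeded Ptgds, the lipocalin-type prostaglandin D synthase, in 3 of 4 libraries, but in culture 4 it was 0.449 of Ptgds. Apod, another lipocalin, was at 0.126 RPKM. Cd109 was 4.25-fold below A2m, the secreted alpha-2-macroglobulin, which stood at 178 ± 4.47 RPKM and hardly differed in culture 4 (0.05). It was above the complement genes C3 and C4b, by 5.47-fold and 9.21-fold. Emp1 was 4.28-fold below Pmp22 and 1.91-fold below Emp2, and 4.82-fold above Emp3. Emp1 therefore stood below both in every library.

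Steap4 was the lowest of its family in RPKM, 3.16-fold below Steap3, a ferrireductase of iron uptake in red cell precursors. That gap was 2.04-fold with GENCODE transcript lengths. Steap1 and Steap2 stood 1.93-fold and 1.90-fold above it, but in CPM it lay above Steap1, by 1.34-fold. Sphk1 was 1.34-fold below Sphk2 in 4 of 4 libraries, but with GENCODE transcript lengths it lay 1.02-fold above it, so their order is not settled by these data. Aspg was 64.0-fold below Asrgl1, the other asparaginase measured, which stood at 95.8 ± 5.46 RPKM. The gap was 23.2-fold with GENCODE lengths and 35.8-fold in CPM, so its size depends on the length term while its direction does not. The asparaginase transcripts of these cultures were thus mostly those of Asrgl1.

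**Figure D4:**
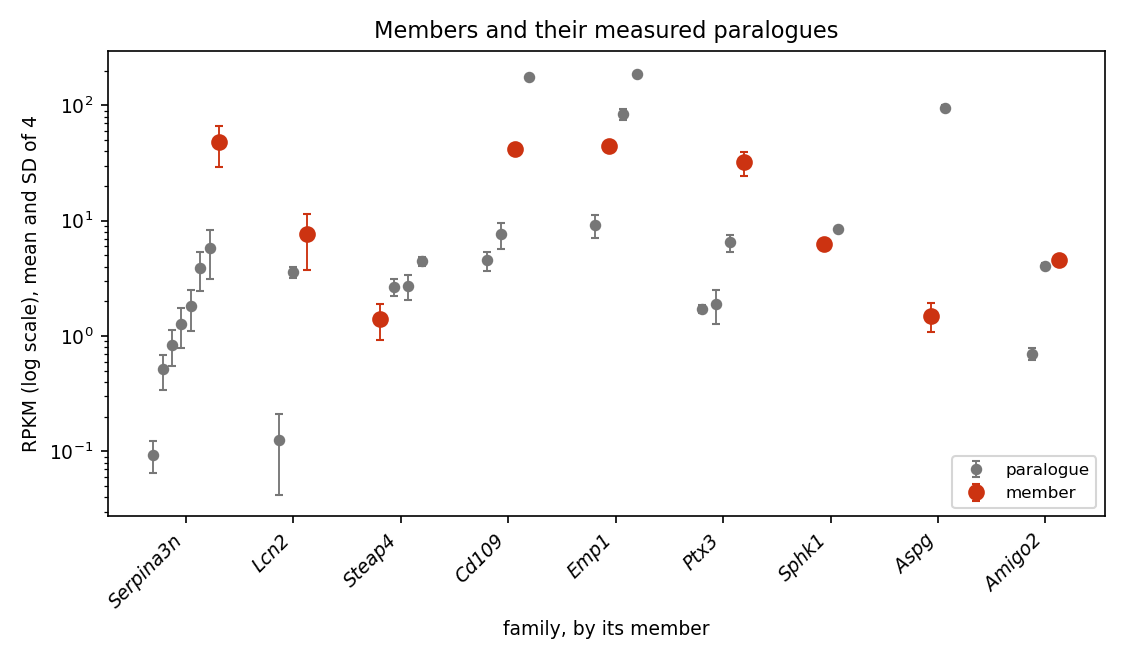
RPKM (log scale) of each member (red) and its paralogues (grey) in 9 families, as the mean of 4 cultures with SD, for genes with a mean of at least 0.05 RPKM. Serpina3n, Ptx3 and Amigo2 are the top genes of their families, Lcn2 is the top gene by its mean but not in culture 4, and Steap4, Sphk1 and Aspg are the lowest of theirs.

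Genes that act with the members were mostly expressed. The Lcn2 receptors Slc22a17 and Lrp2 stood at 119.9 ± 3.16 and 55.4 ± 4.78 CPM, with differences of 0.02 and 0.18, while Lcn2 itself differed by -2.05. The cytoskeletal linkers that bind the tail of Cd44, Msn, Ezr and Rdx, were at 948 ± 67.8, 740.1 ± 15.6 and 276 ± 12.3 CPM. Spp1, the Cd44 ligand osteopontin, was at 105 ± 3.77 CPM, and the hyaluronan synthases Has1, Has2 and Has3 at 0.03, 0.49 and 0.17. Tnfaip6, a hyaluronan-binding partner of Ptx3, was higher in culture 4 (0.42), in the direction opposite to Ptx3.

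For Sphk1, the receptors of its product were at uneven levels, and all 5 expressed partners lay further below the other cultures in culture 4 (median -0.24) than Sphk1 itself (-0.08). S1pr1 was at 158 ± 9.56 CPM, S1pr3 at 90.55 ± 15.1 and S1pr2 at 10.0. The exporter Spns2 was at 0.86 CPM, and the lyase Sgpl1, which degrades sphingosine-1-phosphate, at 243 ± 19.5. S1pr3, itself a pan-reactive gene, had 96.7 to 99.7 CPM in cultures 1 to 3 against 68.0 in culture 4 (-0.52). Asns, which makes the asparagine that Aspg degrades, was at 25.8 ± 3.06 CPM (-0.34).

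Marker lists of other cells differed between the cultures as well. The summed CPM of the 8 fibroblast markers was 1468 to 1543 in cultures 1 to 3 and 592 in culture 4, or 39.4%. The sum rests largely on Col1a1, at 570 to 623 against 72.4 CPM (-3.03), and without it culture 4 was at 57.3% (898 to 919.96 against 519 CPM). Col1a2 stood at 719 to 749 against 410.3 CPM (-0.83) and Ogn, a small matrix proteoglycan, at 131 to 142 against 99.9 (-0.46). Dcn, Lum and Slc6a13 were below 1 CPM in every library. The 10 microglial markers summed to 126 to 134 against 83.3, or 63.9%, with 9 of 10 expressed and Tmem119 differing most (-1.62). Besides C1qa, the most abundant of them were Csf1r at 30.2 ± 4.62 CPM (-0.46) and Itgam at 16.1 ± 3.44 (-0.66). Of the 10 markers 9 were below 0, and Trem2 was higher, at 2.60 to 3.12 CPM against 3.87 (0.37). The 10 astrocyte markers summed to 9725 to 9963 against 8128, or 82.8%, of which Gfap is also a pan-reactive gene. They were uneven. Besides Gfap, Atp1b2 (-0.77), Aqp4 (-0.46) and Gja1 (-0.39) were lower in culture 4, Slc1a2 (0.31) and Aldoc (0.16) were higher, and Slc4a4 (-0.02), Aldh1l1 (0.05), Slc1a3 (-0.07) and Sox9 (0.08) were within 0.1 of the other cultures. The median differences were -0.05 for astrocyte, -0.55 for microglial and -1.92 for fibroblast markers.

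The 5 endothelial markers summed to 0.609 to 1.15 CPM in cultures 1 to 3 and 0.614 in culture 4, at or near 0 throughout, with Pecam1, Emcn and Cdh5 the highest. The summed mural list was at 100.8% of the other cultures, but nearly all of it was Acta2, at 1929 ± 53.3 CPM (0.02). Pdgfrb and Rgs5, the other expressed mural markers, were lower in culture 4 (-0.56 and -0.64), and without Acta2 the list was at 66.3% (37.9 to 40.5 against 26.2 CPM). The oligodendrocyte lineage list was at 97.1%, with Pdgfra higher (0.67) and Cspg4 near the others (-0.07). Of its 5 genes averaging 1 CPM or more, 4 were below 0 (median -0.29), among them Mal (-0.64) and Mbp (-0.29). The neuronal list was at 89.1%, led by Stmn2 (-0.07) and Gad1 (-0.09), with Tubb3 lower (-1.34) and Gad2 higher (0.81). The ependymal list, at 101.0%, was mostly Foxj1 (0.02), followed by Dynlrb2 and Ccdc153. All 8 of 8 proliferation genes were higher in culture 4, with a sum of 1507 to 1516 against 2106 CPM, or 139.2%. Top2a, Mki67 and Cdk1, the most abundant, differed by 0.42, 0.44 and 0.31, and Ccna2 most, by 1.02. Beside these lists, Lcn2, Serpina3n, Steap4, Aspg and Ptx3 were at 19.5% to 57.0% of the other cultures. The part of microglial cells, fibroblasts, mural cells and proliferation in the members' differences was not tested.

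**Figure D5:**
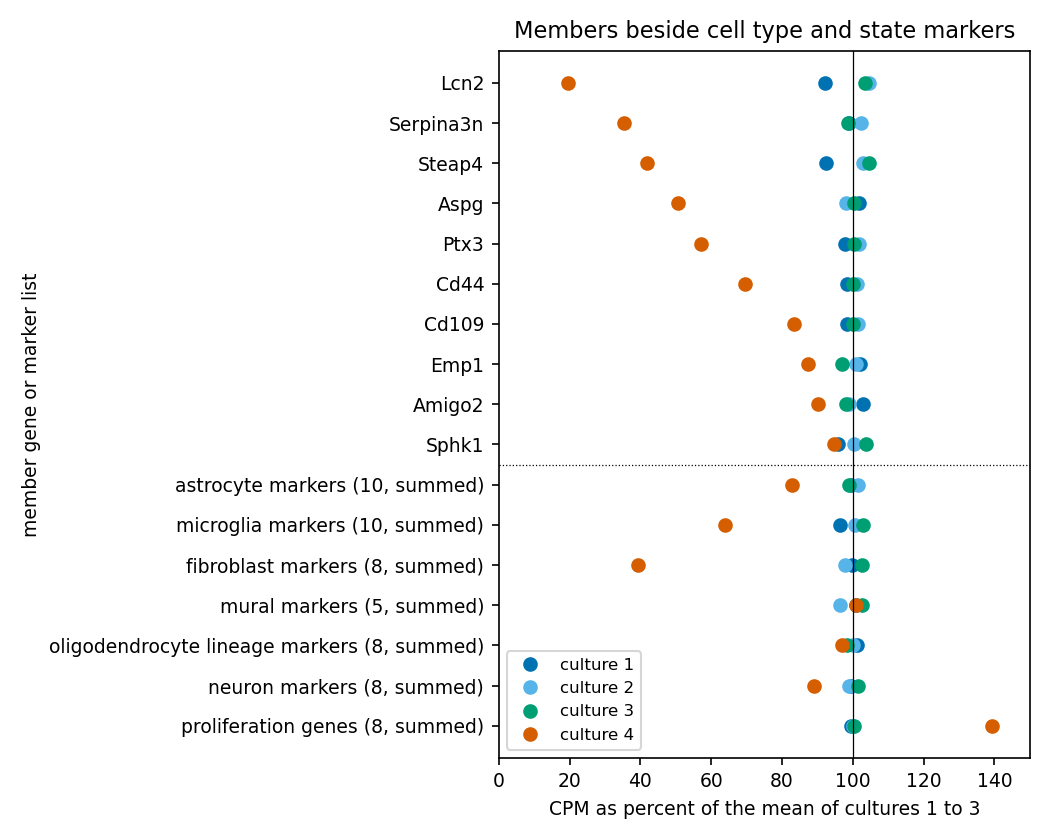
CPM of each member, and summed CPM of cell type and proliferation lists, in each culture as a percent of the mean of cultures 1 to 3. In culture 4 the members run from Lcn2 (19.5%) to Sphk1 (94.7%), beside the fibroblast list at 39.4% (57.3% without Col1a1), the microglial list at 63.9%, the astrocyte list at 82.8% and the proliferation list at 139.2%.

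Genes with the most similar profile over the 4 libraries were found for the 7 members with a mean of at least 10 CPM, as the smallest root mean square difference of centred log2 values among 14715 genes. With 4 libraries, this is a description of these cultures only. For Serpina3n these were P4ha3, a collagen prolyl hydroxylase subunit, Fndc1 and Ccdc3. P4ha3 had 101 to 104 CPM in the first 3 cultures and 36.1 in culture 4, a difference of -1.497 beside the -1.49 of Serpina3n. For Ptx3 the nearest were Shank3, a postsynaptic scaffold, Chgb, a secretory granule protein, and Dynlt1f, and for Cd44 they were Rgs4, Slc16a1 and Ifi27. Few genes shared the profile of Serpina3n, with 32 within a difference of 0.1. For Ptx3 there were 329 and for Cd44 990.

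The flatter members had many such neighbours: 3827 genes for Cd109, 4985 for Emp1, 6149 for Amigo2 and 7171 for Sphk1. The nearest were Jun, Acss3 and Fxyd5 for Cd109, Sema6d, Dipk1a and Cibar1 for Emp1, Bola3, Prune2 and Adgrl3 for Amigo2, and Tbcel, Nbdy and Slc7a4 for Sphk1.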

How the data were processed

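The 4 libraries were sequenced from poly-A RNA (500 ng of total RNA, RNA integrity number above 9.3, 14 PCR cycles, stranded kit, per the labels' protocols). The authors deposited 1 table of estimated counts per gene. Per the submitters' processing notes, the tools were featureCounts 1.6.4 (Subread), STAR 2.7.2b, cutadapt 1.17 and bcl2fastq 2.20.0.422, with the build GRCm38.p6, and no source used here gives their settings. Of the values above 0, 31.7% were not whole, which a split of reads between similar genes can give, and such levels are uncertain. Of the 10 members, 8 had whole counts in every library, and Serpina3n and Emp1 did not.

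CPM used the raw library sums, at which 3 counts are 0.0708 to 0.0804 CPM, and RPKM the deposited combined exon length. Counts of amplified reads are not independent molecules, so intervals cover counting error only. Culture 4 was compared with the mean of cultures 1 to 3 as log2(CPM + 0.5), for genes averaging 1 CPM or more, which understates differences of low genes. No p-value is given, because the labels give 1 group and a sign-flip test over 4 libraries cannot go below 0.125. Dixon's 95% limit was used to mark single libraries that stand apart. BCV came from edgeR 4.0.16 (TMM, intercept only, counts rounded to whole numbers, default filter), in R 4.3.3. A check on simulated counts, with the same BCV for every gene, covered the common estimate only and not the values of single genes. Size factors came from DESeq2 1.42.0, and all else from Python 3.11.15 with SciPy 1.17.1.

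The members and all gene lists (173 symbols, all in the table) were chosen with earlier results of these data known, and support nothing by themselves. Named were all members, the 3 most abundant genes of each list and the 1 with the largest difference in culture 4, measured paralogues, and the 3 nearest genes by profile, except 1 gene that is not reported here. Others, such as the remaining astrocyte and endothelial markers, inducing cytokines and partners, were named after their values were seen. So were Trem2, Mal, Mbp and Gad2. Alternatives were other scalings, pseudocounts, minimum levels, folds, lengths, filters and leaving out each library. The GENCODE lengths, the summed Serpina3 cluster, and the fibroblast and mural sums without 1 gene were added after the data were seen.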

Additional observations from a re-analysis of the deposited data

Results flagged for a closer look

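In 5 of the 10 members the lowest library was separated from the other 3 by more than Dixon's 95% limit, and in each of them it was culture 4. The values were 43.7 CPM for Serpina3n, 1.58 for Lcn2, 216 for Cd44, 3.52 for Aspg and 39.3 for Ptx3. Its gap to the next library took 0.949, 0.854, 0.911, 0.929 and 0.916 of the whole range in these genes. Cd109 and Steap4 came close to the limit at 0.819 and 0.809. Chance alone passes this limit in about 1 of 20 groups, with any library at either end counted. The share that follows counts culture 4 at the low end only, so it cannot be set against that rate. Among all 15217 genes tested, culture 4 was the lowest library and beyond the limit in 872, or 5.73%, and the 5 values come from that same library.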

How the results depend on the processing

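The count of members lower in culture 4 stayed at 5 under both other scalings, both other pseudocounts, no minimum level and without culture 1, 2 or 3, and was 3 at a fold of 2. All 71 differences of single members under the alternatives were below 0. Of these, 13 moved by at least 1 SD of cultures 1 to 3, by at most 1.46-fold, for Lcn2 at a pseudocount of 2 (-1.50). The median BCV of the members ranged from 0.0247 (without culture 4) to 0.190 when 1 library was left out. In CPM without the length term 5 members kept their rank, and 2 families in place of 3 were led by the member. Without culture 4, Lcn2 joined the leading members, for 4 in all. All 10 members were expressed under every setting except a minimum of 5 CPM, where 7 were. With GENCODE lengths, the ratio of Steap3 to Steap4 went from 3.16 to 2.04 and that of Asrgl1 to Aspg from 64.0 to 23.2. No paired analysis was possible because the 4 libraries form 1 group. Depth limits Lcn2, Steap4 and Aspg most, with at most 340 counts in any library.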
